A study of Mus musculus with 6 samples.

Results

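The Ly6 antigens Ly6a, Ly6c1, Ly6c2, Ly6e and Ly6i, together with Plac8, Crip1, Cmtm3 and Nr1h3, were followed in tumor-associated macrophages (TAMs) as transcripts associated with monocytes and with interferon exposure. These 9 genes are 9 of the 39179 rows of the count table and were found by their symbols. They were chosen by their expression in these libraries, with the fold changes between the groups already known, so that these differences are descriptions and carry no test.

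Macrophages of melanomas that can make prostaglandins through cyclooxygenases were compared with those of melanomas that cannot. TAMs were sorted from subcutaneous tumors of a Braf-mutant mouse melanoma line grown in C57BL/6 hosts, 8 weeks old at the time. In the Ptgs-competent group (Ptgs+/+, 3 libraries) the tumor cells were wildtype for Ptgs1 and Ptgs2, the genes of the cyclooxygenases COX-1 and COX-2. In the Ptgs-deficient group (Ptgs-/-, 3 libraries) both genes had been disrupted in the tumor cells by CRISPR/Cas9. The hosts, and with them the macrophages, kept both genes in either group, and each library came from a pool of tumors. All groups rest on the same tumor line. The replicates are separate pools, and p-values measure the spread between these pools. By the published gate the sort took live CD45+ cells that carried CD11b and F4/80, lacked NK1.1 and Ly6G, and had no or dim Ly6C. The sample labels name only stains for CD45, F4/80, CD11b and Ly6C, with no level of Ly6C. Ly6C, the protein made from Ly6c1 and Ly6c2, was thus among the stains used for sorting in both groups.

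Ly6 proteins are small, disulfide-rich molecules held on the outer face of the cell membrane by a glycosylphosphatidylinositol anchor, and their genes lie in a cluster on mouse chromosome 15. Several are induced by interferons. Classical monocytes carry much Ly6C when they leave the blood and lose it as they mature into macrophages, which is why Ly6C is used to tell the 2 stages apart in tumors. Nr1h3 encodes the liver X receptor alpha (LXR alpha), a nuclear receptor that senses oxidised cholesterol, pairs with retinoid X receptors, turns on genes of cholesterol export and can restrain inflammatory genes in macrophages.

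The start regions of the members were read from RefSeq (assembly GRCm38.p6) to show what the close pair Ly6c2 and Ly6c1, and the members furthest apart between the groups, have at their promoters. Entries were found for 6 of the 9 members, namely Ly6c1, Ly6c2, Plac8, Crip1, Cmtm3 and Nr1h3, and not for Ly6a, Ly6e and Ly6i. Each sequence runs 5′ to 3′ along the strand of the gene, from 250 bases before the transcription start to 50 bases after it. Capitals mark the letters GAGGAAGT, a form of the motif bound by PU.1, the lineage factor of monocytes and macrophages. The entries are Ly6c2 (chr15:75111922-75112221, minus strand), Ly6c1 (chr15:75048788-75049087, minus strand), Plac8 (chr5:100572156-100572455, minus strand), Cmtm3 (chr8:104340344-104340643, plus strand) and Crip1 (chr12:113151762-113152061, plus strand).
Ly6c2: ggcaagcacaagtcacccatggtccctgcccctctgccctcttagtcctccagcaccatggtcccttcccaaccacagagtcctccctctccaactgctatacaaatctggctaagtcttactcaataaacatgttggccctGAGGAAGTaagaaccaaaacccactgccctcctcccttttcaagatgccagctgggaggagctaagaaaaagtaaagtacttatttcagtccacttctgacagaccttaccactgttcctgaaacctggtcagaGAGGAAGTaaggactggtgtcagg
Ly6c1: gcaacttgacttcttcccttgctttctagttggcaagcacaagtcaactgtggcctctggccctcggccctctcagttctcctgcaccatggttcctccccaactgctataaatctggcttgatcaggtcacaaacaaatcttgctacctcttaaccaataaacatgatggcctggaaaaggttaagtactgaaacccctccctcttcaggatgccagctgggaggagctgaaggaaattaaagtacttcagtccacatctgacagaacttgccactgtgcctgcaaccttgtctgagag
Plac8: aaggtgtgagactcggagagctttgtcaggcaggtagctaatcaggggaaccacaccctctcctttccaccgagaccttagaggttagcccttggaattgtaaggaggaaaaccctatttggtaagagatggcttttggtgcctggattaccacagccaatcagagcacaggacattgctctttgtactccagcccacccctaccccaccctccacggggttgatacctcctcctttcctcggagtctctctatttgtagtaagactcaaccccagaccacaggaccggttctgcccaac
Cmtm3: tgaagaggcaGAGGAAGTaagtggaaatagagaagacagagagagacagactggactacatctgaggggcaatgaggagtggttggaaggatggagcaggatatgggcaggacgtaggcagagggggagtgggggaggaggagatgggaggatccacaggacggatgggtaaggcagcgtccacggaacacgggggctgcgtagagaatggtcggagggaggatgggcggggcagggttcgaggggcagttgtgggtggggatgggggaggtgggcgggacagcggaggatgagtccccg
Crip1: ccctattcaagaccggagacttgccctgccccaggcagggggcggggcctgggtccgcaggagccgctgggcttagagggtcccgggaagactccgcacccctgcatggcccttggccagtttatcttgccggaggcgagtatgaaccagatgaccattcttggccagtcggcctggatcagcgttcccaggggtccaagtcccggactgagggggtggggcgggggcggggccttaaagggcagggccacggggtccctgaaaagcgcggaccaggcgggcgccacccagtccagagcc

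Ly6c2 held the PU.1 letters at 2 places, beginning at positions -108 and 26 counted from the start of the entry printed above, and at -142 and -8 from the start of its second entry (chr15:75111888-75112187), while Cmtm3 held them at position -240. The Ly6c1 entry printed above had no full match, while a second Ly6c1 entry, whose start lies further into the gene (chr15:75048614-75048913), had one at position -127. The entry printed above ends within the letters of that match. The bases directly after it are the same as those directly after the Ly6c2 match at position 26. Plac8, Crip1 and Nr1h3 had none in any of their entries. Of 32851 promoter windows of the same length, 3.20% held these letters on either strand. The interferon-gamma motif TTCNNNGAA, the cyclic AMP motif TGACGTCA and its shorter form TGACG, which is contained in it, were in 8.30%, 1.79% and 20.8% of all windows and in no entry of the 6 members. The same was true of the core of the type I interferon response element (ISRE), in 3.44%, and of the LXR response element (DR4), in 0.0152%. A match is a match of letters only. Aligned end to end, the Ly6c2 and Ly6c1 windows had the same base in 208 columns, a different base in 58 and a gap in 68, so that 62.3% of the columns were identical. Against the second Ly6c1 entry the share was 45.6%.

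Depth and the state of the libraries set the precision of the values. The libraries held 4431184 to 8760679 counts, and 8793 of 39179 genes passed the filter on low counts. Levels are CPM (counts scaled to a common library size) after TMM scaling, and because only the 3′ ends of transcripts were read, a count does not grow with the length of a transcript. In every library 3 counts, the most that a true level may hide behind a count of 0, came to between 0.357 and 0.647 CPM, for counting error only. Ptgs-competent replicate 3 stood apart, with a summed level of 10 macrophage markers of 3633 CPM where the other Ptgs-competent libraries had 9470 and 11066 and the Ptgs-deficient libraries 14857 to 15808. Of the genes behind the sort gate, Ptprc (CD45) had 549 to 1637 counts and Itgam (CD11b) 1434 to 9659, Emr1 (F4/80, now Adgre1) had 403 to 3625, Klrb1c (NK1.1) had at most 5, and Ly6g had 0 in every library.

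Of the 9 members, 7 passed the filter on low counts, and 6 of these were higher and 1 lower in the Ptgs-deficient group with no overlap between the groups. Among all genes tested, 19% had groups that did not overlap, and 11% did so with the Ptgs-deficient group higher. By the edgeR quasi-likelihood test at an FDR of 0.05 and a log2 fold change of 1.5, 3 members were called higher (Plac8, Crip1 and Cmtm3) where 0.216% of all genes were called in either direction and 0.159% were called higher. Since the contrast chose the members, these counts are not evidence about them. The median log2 fold change (LFC, Ptgs-deficient over Ptgs-competent) of the tested members was 2.19, where that of all genes tested was 0.02. In bulk samples, fewer cells with a transcript and less of it in each cell cannot be told apart.

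**Figure D1:**
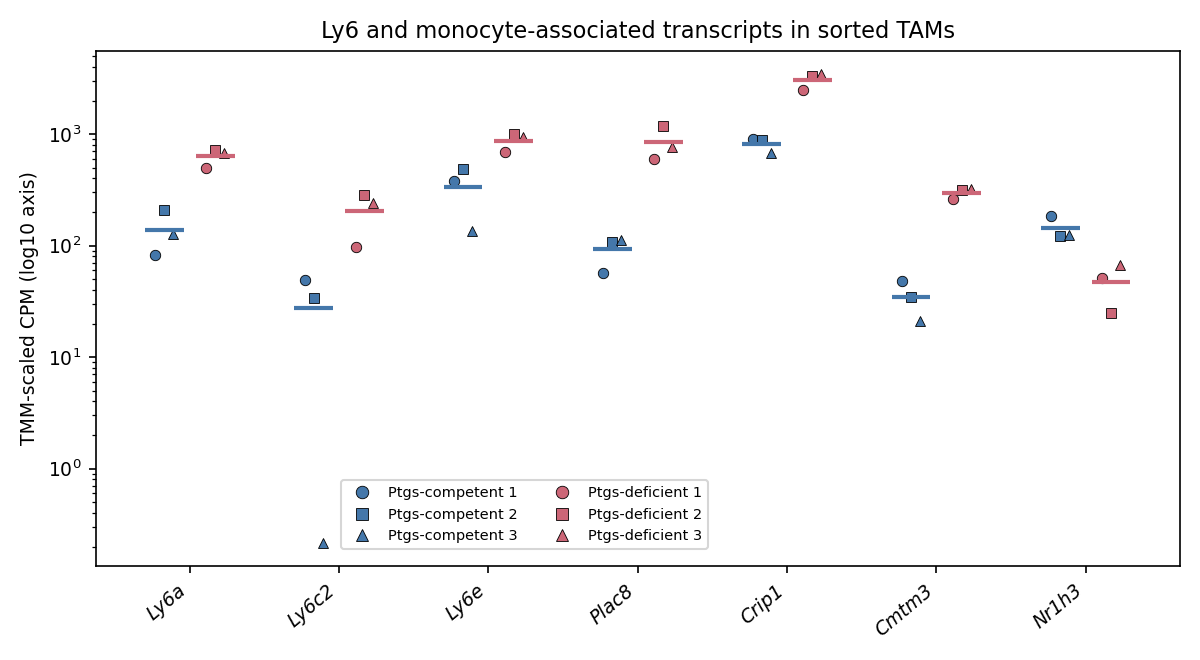
TMM-scaled CPM (log10 axis) of the 7 tested members in each library, with Ptgs-competent libraries in blue, Ptgs-deficient in red, a symbol for each replicate number and bars at the group means. Apart from Nr1h3, every red symbol lies above every blue symbol of the same gene, and Ly6c2 in Ptgs-competent replicate 3 lies far below all others at 0.216 CPM.

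Ly6a (ENSMUSG00000075602; chr15:74994877-74998031, minus strand) encodes Sca-1, an interferon-inducible surface antigen best known from blood stem cells. Ptgs-competent replicates 1, 2 and 3 held 82.2, 207 and 127 CPM of it, and Ptgs-deficient replicates 1, 2 and 3 held 498, 719 and 674 CPM. Every Ptgs-deficient library lay above every Ptgs-competent library, the lowest of the former at 2.41 times the highest of the latter. The means were 139 ± 63.1 and 631 ± 117 CPM (SD, n = 3 each), a 4.55-fold difference and an LFC of 2.19 ± 0.41 (SE).

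Ly6e (ENSMUSG00000022587; chr15:74955051-74959905, plus strand) encodes an interferon-inducible antigen known for its effects on virus entry, and had the highest group means of the Ly6 transcripts. Ptgs-competent libraries held 380, 482 and 136 CPM of it and Ptgs-deficient libraries 686, 994 and 949 CPM. The groups did not overlap, although the nearest libraries were only 1.42 times apart, the narrowest gap of the 7 members. The means were 333 ± 178 and 877 ± 166 CPM (SD, n = 3 each), with an LFC of 1.40 ± 0.45 (SE). Without Ptgs-competent replicate 3, its lowest library, the log2 fold change was 1.08.

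Ly6c2 (ENSMUSG00000022584; chr15:75108158-75111970, minus strand) encodes the Ly6C antigen of monocytes, which was stained for the sort. It had counts of 309, 206 and 1 in Ptgs-competent and 529, 2373 and 1154 in Ptgs-deficient libraries, or 49.2, 33.8 and 0.216 CPM against 96.5, 283 and 239 CPM. The groups did not overlap, and the spread within each was the widest of the 7 members, with a coefficient of variation of 90.3% and 47.2%. The means were 27.8 ± 25.1 and 206 ± 97.3 CPM (SD, n = 3 each), a 7.40-fold difference in the fit, and the log2 fold change was 2.89 ± 1.15 (SE). The Ptgs-competent mean was 41.5 CPM without replicate 3, and the log2 fold change was then 2.36. It was 3.59 without Ptgs-competent replicate 1, and 4.07 under limma voom with sample quality weights, where the median of all genes was 0.39.

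Ly6c1 (ENSMUSG00000079018; chr15:75044018-75048830, minus strand), the neighbor of Ly6c2 and known as the Ly6C gene of endothelial cells, was all but missing. It had 2 counts in Ptgs-deficient replicate 2 and 0 in the other 5 libraries, and was not tested. Of the 4574 counts given to either gene in all libraries, these 2 were the only ones of Ly6c1. Reads of the pair can be hard to separate at the 3′ end, where 75 windows of 50 bases, 29.9% of those in the last 300 bases of the transcripts, were shared between them. No such window was shared by any other pair of the 5 Ly6 members, and how reads that fit both genes were handled is not stated. Ly6i (ENSMUSG00000022586; chr15:74979534-74983430, minus strand), which encodes a further Ly6 surface antigen, had 20 counts in Ptgs-competent replicate 2 and 0 in the other 5 libraries.

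The 5 Ly6 members lie within 157 kb of chromosome 15, and what they shared there was uneven. Within this span and 100000 bases on either side there were 8 genes, all protein-coding. Of these, 5 had a count in some library (the members themselves) and 3 were tested, Ly6e, Ly6a and Ly6c2. Cyp11b2, 2010109I03Rik and the neutrophil antigen gene Ly6g had 0 counts in every library. Ly6c1 and Ly6i, which lie between or beside the 3 abundant genes, were at or near 0 in both groups.

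Plac8 (ENSMUSG00000029322; chr5:100553725-100572245, minus strand) encodes a small cysteine-rich protein of placenta and myeloid cells, and had the largest log2 fold change of the members in the quasi-likelihood fit. Ly6c2 was above it under limma voom, with the replicate block and without Ptgs-competent replicate 1, and Cmtm3 was above it when either Ptgs-competent replicate 1 or replicate 2 of the Ptgs-deficient group was left out. Ptgs-competent libraries held 56.9, 109 and 112 CPM of it and Ptgs-deficient libraries 598, 1183 and 769 CPM. The lowest Ptgs-deficient library was at 5.33 times the highest Ptgs-competent library. The means were 92.6 ± 31.0 and 850.0 ± 301 CPM (SD, n = 3 each), a 9.18-fold difference with an LFC of 3.20 ± 0.42 (SE).

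Cmtm3 (ENSMUSG00000031875; chr8:104339410-104347672, plus strand) encodes a membrane protein of the chemokine-like factor family with a MARVEL domain. Ptgs-competent libraries held 48.0, 34.6 and 20.9 CPM of it and Ptgs-deficient libraries 260.4, 313 and 319 CPM. The gap between the groups was the widest of the members, at 5.43 times, and the Ptgs-deficient libraries were close together with a coefficient of variation of 10.9%. The means were 34.5 ± 13.5 and 297 ± 32.3 CPM (SD, n = 3 each), an 8.61-fold difference in the fit with an LFC of 3.11 ± 0.45 (SE).

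Crip1 (ENSMUSG00000006360; chr12:113146316-113153879, plus strand), which encodes a small zinc-binding LIM domain protein, was the most abundant member, with a mean level above those of 99.4% of the genes tested. Ptgs-competent libraries held 895, 893 and 684 CPM of it and Ptgs-deficient libraries 2465, 3352 and 3449 CPM. Neither group spread widely, with coefficients of variation of 14.7% and 17.6%, and the groups did not overlap. The means were 824 ± 121 and 3088 ± 542 CPM (SD, n = 3 each), with an LFC of 1.91 ± 0.30 (SE), the smallest SE of the members.

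Nr1h3 (ENSMUSG00000002108; chr2:91184061-91202834, minus strand) went the other way. Ptgs-competent libraries held 184, 122 and 125 CPM of it and Ptgs-deficient libraries 50.7, 25.1 and 66.6 CPM. The groups did not overlap, and the lowest Ptgs-competent library was at 1.83 times the highest Ptgs-deficient library. The means of 143 ± 34.9 and 47.5 ± 20.9 CPM (SD, n = 3 each) differed 3.02-fold, with an LFC of -1.60 ± 0.55 (SE). Nr1h3 was the only member overlapped by other genes, Gm13783 and Gm23390, which had 0 counts in every library.

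**Figure D2:**
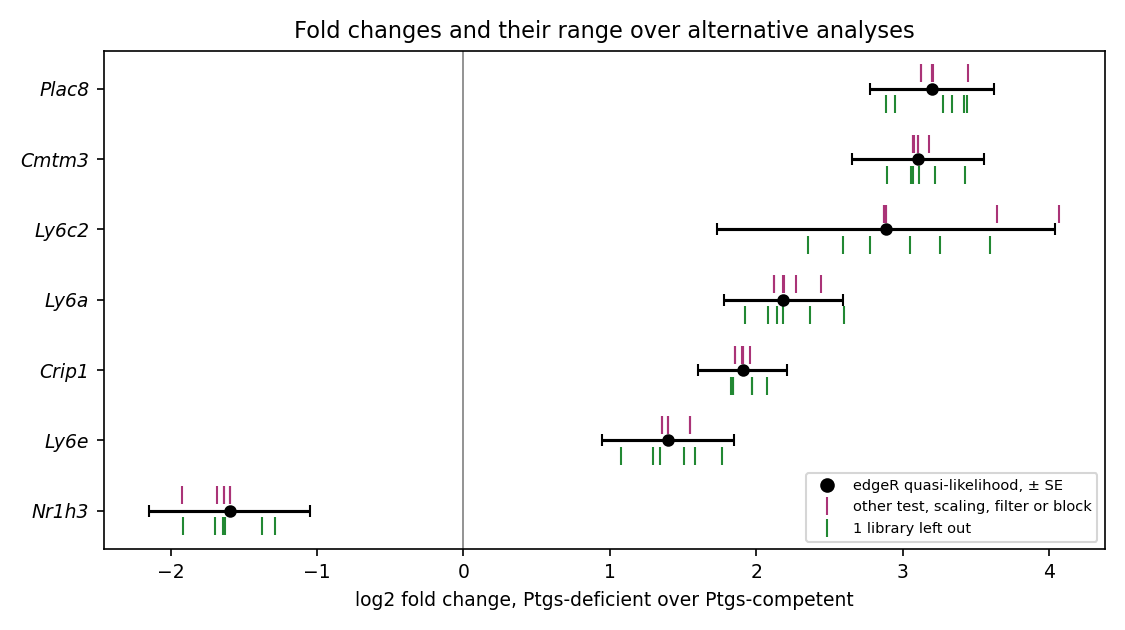
Log2 fold change of the 7 tested members, Ptgs-deficient over Ptgs-competent, from the edgeR quasi-likelihood fit (black point with SE), with ticks for the fits with another test, scaling, filter or block (purple) and for those without 1 library (green). No tick crosses 0, and Ly6c2 has the widest range, from 2.36 to 4.07.

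The members shared an order of the libraries within each group in part. In the Ptgs-deficient group, replicate 1 was the lowest library for 6 of the 7 tested members, all but Nr1h3, for which replicate 2 was lowest. Replicate 2 was the highest for Ly6a, Ly6c2, Ly6e and Plac8, and replicate 3 for Crip1, Cmtm3 and Nr1h3. In the Ptgs-competent group, replicate 3 was the lowest for Ly6c2, Ly6e, Crip1 and Cmtm3 and the highest for Plac8. These are the orders of 3 libraries each and were given no test.

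The calls of the members changed with the libraries and the test, and their directions did not. Over 12 alternative fits, each of the 7 members kept its direction. The log2 fold change ranged from 2.89 to 3.45 for Plac8, 2.89 to 3.42 for Cmtm3, 1.82 to 2.08 for Crip1, 1.92 to 2.60 for Ly6a, 1.08 to 1.76 for Ly6e and -1.92 to -1.29 for Nr1h3. The 3 called members were also called without Ptgs-competent replicate 3, where 25 of 9741 genes tested were called. When any other library was left out 0 members were called, and only 0 to 11 of 9444 to 9902 genes tested were called at all. The edgeR likelihood ratio test, DESeq2 and the fit with the replicate number as a block called Ly6a as well, where they called 2.74%, 3.73% and 0.876% of all genes. The fit with no filter on low counts added Ly6a and Ly6c2, with 1.89% of all genes called, and limma voom added Ly6a and Ly6e, with 1.4% called.

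Lists of other genes were read against all genes tested, of which 50.7% were fitted higher and 776 (8.83%) had an unadjusted p under 0.05 by the quasi-likelihood test. The likelihood ratio test called 2.74% of them, DESeq2 3.73% and limma voom 1.4%. Most relatives of the Ly6 members had no counts. Of 33 other genes of the Ly6 and urokinase receptor family, 32 were in the table, 6 were seen in some library and 1 was tested. That gene, Plaur, the urokinase receptor itself, had counts of 72, 194 and 6 in Ptgs-competent and 66, 990 and 134 in Ptgs-deficient libraries. Its groups overlapped, at an LFC of 1.82 ± 1.39 (SE, edgeR FDR 0.974). No gene of this list was called by edgeR or by any other tool run, and 0 had an unadjusted p under 0.05. Of 15 paralogs of Plac8, Crip1 and Cmtm3, 6 were tested, 0 were called by any tool run and 1 had an unadjusted p under 0.05, with a median log2 fold change of 1.17. That gene was Cmtm6, a regulator of PD-L1 at the cell surface and a relative of Cmtm3. It was at 41.3 ± 35.9 and 177 ± 33.1 CPM (SD, n = 3 each), at an LFC of 2.10 ± 0.71 (SE, edgeR FDR 0.360). Its groups did not overlap, and the Ptgs-competent libraries were spread at 35.2, 79.9 and 8.84 CPM. Cmtm7 had an LFC of 1.68 ± 1.27 (SE, edgeR FDR 0.972), also without overlap of the groups. Plp2, whose groups overlapped, had at most 66 counts in the Ptgs-competent and 193 in the Ptgs-deficient libraries (edgeR FDR 0.9995).

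Other transcripts of classical monocytes were split between the directions. Of 27 tested genes on a list of classical monocyte transcripts that leaves the members out, 14 were fitted higher and 13 lower. Their median LFC was 0.04 beside 0.02 for all genes and 2.19 for the members. By the quasi-likelihood test 1 was called and 6 had an unadjusted p under 0.05, while the likelihood ratio test, DESeq2 and limma voom called 3, 2 and 3, adding Ccr2 and, except for DESeq2, F13a1. Fn1 (fibronectin) rose from 125 ± 39.5 to 645 ± 66.6 CPM (SD, n = 3 each), at an LFC of 2.37 ± 0.36 (SE, edgeR FDR 0.0350). Ccr2, the receptor that draws monocytes out of the marrow, was at 247 ± 136 and 841 ± 82.2 CPM (SD, n = 3 each), at an LFC of 1.77 ± 0.43 (SE, edgeR FDR 0.171). F13a1 and S100a6 had LFCs of 1.53 ± 0.39 and -1.29 ± 0.39 (SE), with edgeR FDR of 0.190 and 0.291.

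On the list of Ly6C-low monocyte transcripts, 17 genes were tested, 11 were fitted higher and 6 lower, and the median log2 fold change was 1.13. By the edgeR quasi-likelihood test 0 were called and 3 had an unadjusted p under 0.05, while the likelihood ratio test, DESeq2 and limma voom called 2 each. Klf2 and Nr4a1, factors of the patrolling monocyte state, had LFCs of 2.25 ± 0.39 and 1.87 ± 0.39 (SE), with edgeR FDR of 0.0622 and 0.107. Cebpb, a further factor of that state, had an LFC of 2.28 ± 0.73 (SE) and an edgeR FDR of 0.306, with groups that overlapped. Its Ptgs-deficient mean was 218 CPM, or 94.3 CPM without replicate 2. On the list of macrophage transcripts, 17 of 22 were fitted higher and the median was 0.72. There 0 were called by the quasi-likelihood test, 11 had an unadjusted p under 0.05, and the likelihood ratio test, DESeq2 and limma voom called 2, 3 and 2. Cd63 had an LFC of -1.49 ± 0.30 (SE) and Folr2 one of 2.48 ± 0.66 (SE), with edgeR FDR of 0.0967 and 0.208. Timd4, a phosphatidylserine receptor of resident macrophages, had 0 counts in all Ptgs-competent libraries and 253, 346 and 80 in the others, at least 64.3-fold more over a floor of 3 counts per library (edgeR FDR 0.208).

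Ly6a, Ly6e and Plac8 are known as interferon-inducible, and the genes of interferon signaling itself were given beside them. Of 20 tested receptors, kinases, factors and feedback genes, 15 were fitted higher, 5 lower, and the median log2 fold change was 0.49. By edgeR and by every other tool run 0 were called, and 2 had an unadjusted p under 0.05 by the quasi-likelihood test. Irf7 and Irf1, factors that relay interferon signals, had LFCs of 1.44 ± 0.46 and 1.46 ± 0.56 (SE), with edgeR FDR of 0.301 and 0.412. The feedback inhibitor Socs3 had an LFC of 0.65 ± 0.32 (SE) and an edgeR FDR of 0.690.

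**Figure D3:**
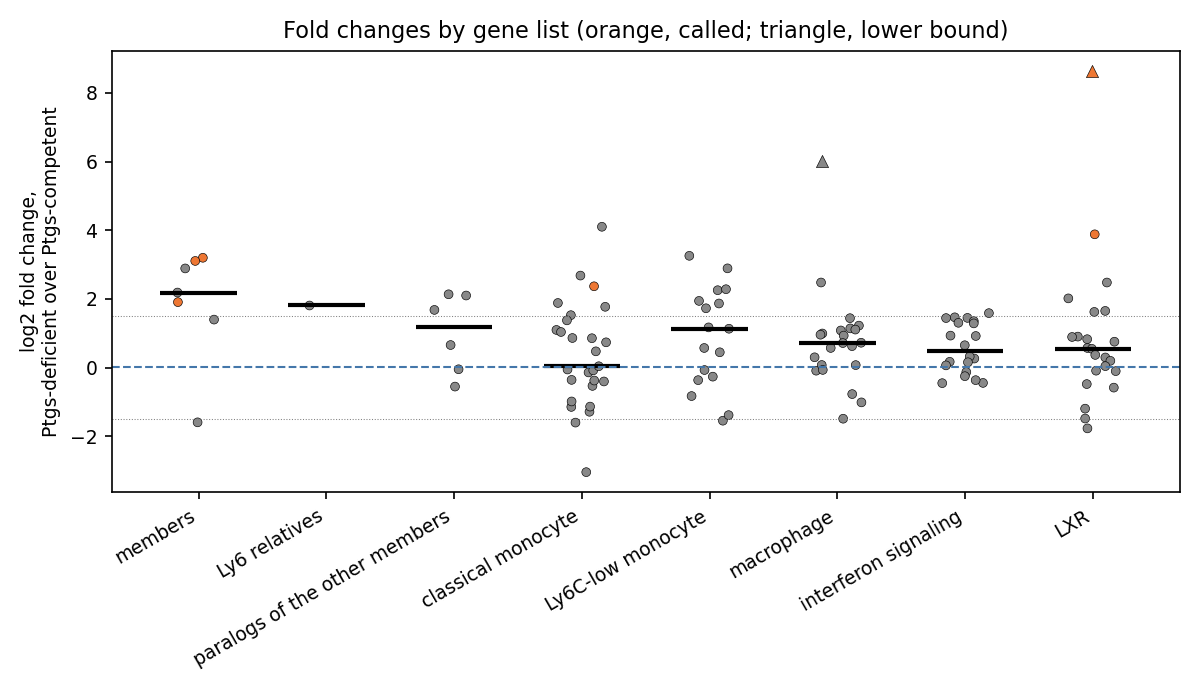
Log2 fold change of each tested gene (points) on the members' list and on 7 lists of other genes, with the list medians (black bars), the median of all genes tested (dashed line) and the fold threshold (dotted lines); orange points were called, and triangles are lower bounds for genes at or under 3 counts in every Ptgs-competent library. The members' median lies at 2.19 and that of the classical monocyte list at 0.04.

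Nr1h3 was lower in the Ptgs-deficient libraries, and the genes it works with or is known to turn on were set beside it. Of 23 tested partners, corepressors and targets of the liver X receptors, 16 were fitted higher and 7 lower (median LFC 0.55). By the quasi-likelihood test 2 targets were called, both higher, and 7 genes had an unadjusted p under 0.05. Lpl, the lipoprotein lipase, had counts of 837, 157 and 677 in Ptgs-competent and 7899, 12851 and 7364 in Ptgs-deficient libraries. The mean rose from 102 ± 66.1 to 1499 ± 49.6 CPM (SD, n = 3 each), at an LFC of 3.88 ± 0.59 (SE, edgeR FDR 0.0350). Cd5l, a secreted protein of lipid-handling macrophages, had counts of 1, 0 and 3 against 974, 1257 and 1545, and so stood at least 400.1-fold higher over the same floor, with an edgeR FDR of 0.00453.

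The cholesterol exporters Abca1 and Abcg1 and the lipid transfer protein Pltp, which are classical targets of Nr1h3, had LFCs of 1.62 ± 0.68, 2.02 ± 0.77 and 2.48 ± 0.46 (SE). Their edgeR FDR values were 0.496, 0.401 and 0.0762, and the groups of Abca1 overlapped. These 3 were named after their values were seen. Other targets on the list were lower in the fit, all with overlapping groups. Fasn, Apoc2, Arl4c and Mertk had LFCs of -1.48 ± 1.67, -0.58 ± 0.60, -0.48 ± 0.43 and -0.09 ± 0.46 (SE). Pltp was called higher by the likelihood ratio test, DESeq2, limma voom, the fits with no filter and with the replicate block, and without Ptgs-competent replicate 3. Nr1h2, which encodes the second liver X receptor, was far below Nr1h3 in the Ptgs-competent group, at 24.7 ± 16.5 CPM, and at 10.7 ± 5.94 CPM in the Ptgs-deficient group (SD, n = 3 each). The corepressor Ncor1 was lower without overlap of the groups, at 238 ± 76.9 and 69.6 ± 37.6 CPM (SD, n = 3 each), with an LFC of -1.77 ± 0.52 (SE, edgeR FDR 0.2697). The LFC of Nr1h2 was -1.20 ± 1.60 (SE), and its groups overlapped. The calls of Lpl and Cd5l were both lost without Ptgs-competent replicate 1, Ptgs-deficient replicate 1 or Ptgs-deficient replicate 3, that of Lpl also without Ptgs-deficient replicate 2, and that of Cd5l under limma voom. That of Fn1 was lost in the 5 fits without a library other than Ptgs-competent replicate 3.

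**Figure D4:**
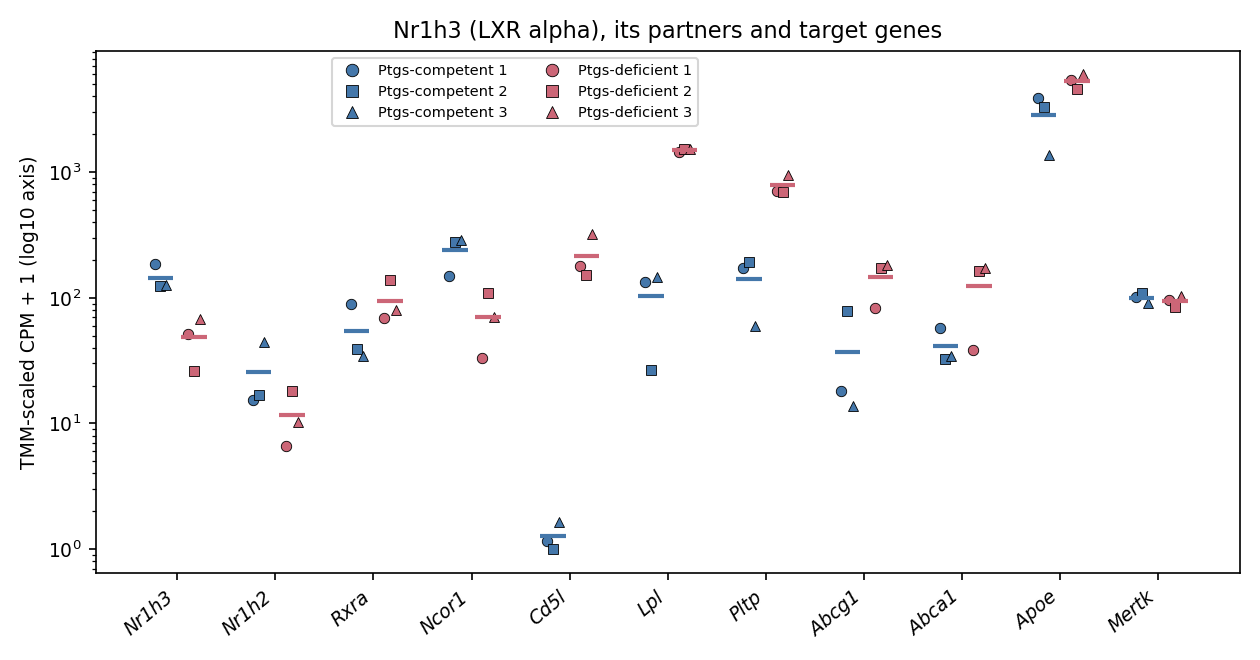
TMM-scaled CPM + 1 (log10 axis) of Nr1h3 and 10 of its partners and targets in each library, with symbols as in the plot of the members. Nr1h3 is lower in every red library, while Lpl, Pltp, Abcg1, Apoe and Cd5l are higher in every red library.

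Markers of other cells differed between the groups and were summed beside the members. Over 10 macrophage markers the summed level was 3633 to 11066 CPM in the Ptgs-competent and 14857 to 15808 CPM in the Ptgs-deficient libraries, in the direction of Ly6a, Ly6c2, Ly6e, Plac8, Crip1 and Cmtm3. C1qa was the largest part of that sum in every library. Csf1r, Mertk and Cd68 on the same list had LFCs of 0.07 ± 0.57, -0.09 ± 0.46 and 0.57 ± 0.75 (SE), with overlapping groups. The other macrophage markers were higher in the Ptgs-deficient group without overlap. Endothelial cells, which use Ly6c1, Ly6a and Ly6e, had a summed level of 111 to 280 against 39.4 to 96.0 CPM over 10 markers, of which the defining genes Cdh5, Cldn5, Emcn, Tek and Tie1 were at 0 in every library. Pecam1, which myeloid cells also use, was the largest part of that sum in 5 of the 6 libraries. Plasmacytoid dendritic cells, which are rich in Ly6c2 and Plac8, had 86.5 to 238 against 66.2 to 137 CPM over 8 markers, with Klk1 and Spib at 0. Tcf4, which other cells also use, made up the whole sum in Ptgs-competent replicates 2 and 3, and the more specific Siglech and Ccr9 had 121 counts in Ptgs-deficient replicate 3 and 75 in Ptgs-deficient replicate 1, respectively, and 0 in all other libraries. Neutrophils had 621 to 724 against 452 to 532 CPM over 10 markers, with Ly6g at 0. S100a8 and S100a9 were lower on average in the Ptgs-deficient group, while Retnlg went the other way, at 32.1 ± 24.2 and 139 ± 36.1 CPM (SD, n = 3 each). The groups of Retnlg did not overlap, and its Ptgs-competent libraries held 20.2, 59.9 and 16.2 CPM. Csf3r was also fitted higher, at an LFC of 1.04 ± 1.58 (SE), with overlapping groups. Fibroblasts had 148 to 280 against 16.1 to 66.4 CPM over 7 markers, with Lum at 0. The endothelial, neutrophil and fibroblast sums were lower in the Ptgs-deficient group, opposite to the 6 higher members and in the direction of Nr1h3. Lymphocyte markers reached at most 0.638 against 7.98 CPM over 8 genes, with 6 at 0, and of 8 melanoma markers 7 were at 0 and Mitf gave at most 1.91 against 44.3 CPM. The published gate took CD45+ and F4/80+ cells without Ly6G. Transcripts on these marker lists were counted in the sorted libraries all the same, and the part of other cells in the members' levels was not tested.

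**Figure D5:**
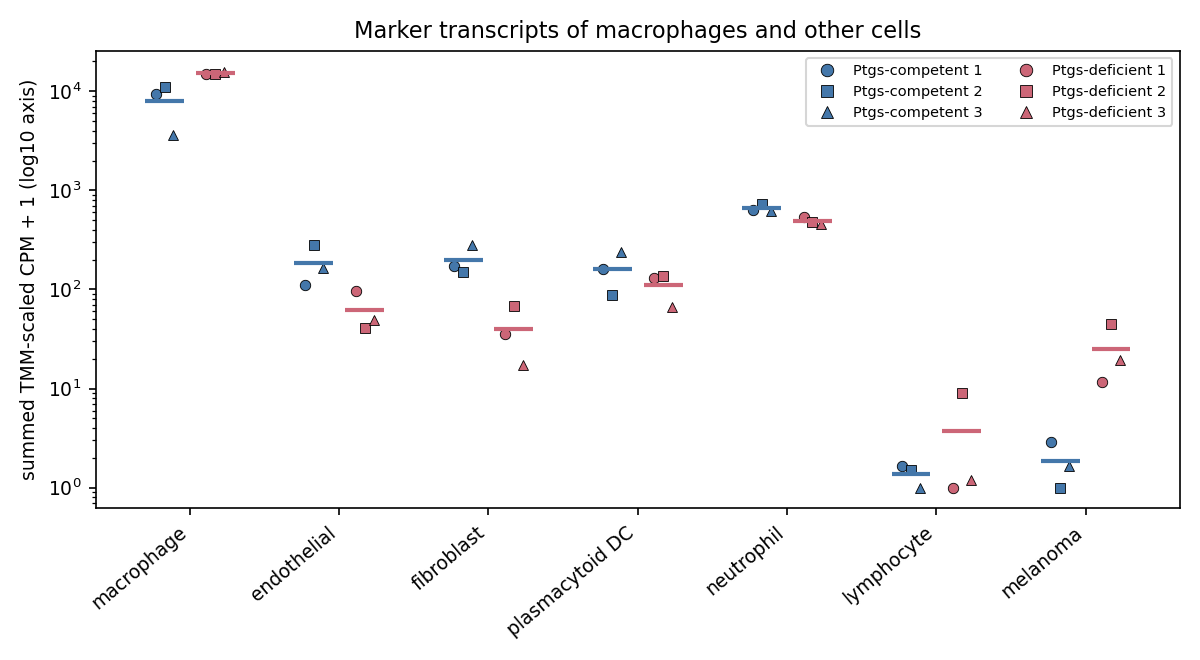
Summed TMM-scaled CPM + 1 (log10 axis) of the marker lists in each library, with symbols as in the plot of the members and bars at the group means. The macrophage sum is lowest in Ptgs-competent replicate 3 at 3633 CPM, and the fibroblast and endothelial sums are lower in every red library than in any blue library.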

How the data were processed

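Gene expression was measured in 6 libraries of sorted TAMs, 3 per group, by QuantSeq FWD, in which reads start near the poly(A) tail. The authors trimmed reads with BBDUK, fqtrim and cutadapt, aligned them with STAR to GRCm38, assigned them to Ensembl genes with featureCounts and deposited raw counts per gene, not normalized. Tool versions, the strand setting and molecular identifiers are not given in the sources used here, so PCR copies may be counted. The submitters' processing notes name STAR, bcl2fastq and edgeR. Library totals were 4431184 to 8760679 counts.

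Counts were filtered with filterByExpr (minimum count 10, minimum total 15), which left 8793 of 39179 genes, scaled by TMM and compared with the two-sided edgeR 4.0.16 quasi-likelihood test in R 4.3.3, adjusted by Benjamini-Hochberg over all genes tested. A gene was called at an FDR of 0.05 and an absolute log2 fold change of 1.5, as in the study. The SE is the absolute log2 fold change over the square root of F. The fold of a member is its absolute log2 fold change in the fit, taken back from the log2 scale. Genes at or under 3 counts in every library of a group were compared with that floor.

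Alternatives were the edgeR likelihood ratio test, DESeq2 1.42.0, RLE scaling, no filter, the replicate number as a block, limma 3.58.1 voom and leaving out each library. The fits were tested on simulated data. The members and lists were chosen with earlier results of these data known. Named genes were the 9 members, tested Ly6 relatives that were called or had 50 counts in a library, the calls of each other list or otherwise up to 3 genes with the smallest p, and the genes of the sort gate. Abca1, Abcg1, Apoe, Pltp, Ncor1, Nr1h2, Fasn, Apoc2, Arl4c, Mertk, Csf1r, Cd68, C1qa, Retnlg, Csf3r, Ccr2, F13a1 and S100a6 were named after their values were seen. Gene positions are from GENCODE M21 (GRCm38), counted from 1. Listed symbols were matched by Ensembl identifier where the table has an older name.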

Additional observations from a re-analysis of the deposited data

How the results depend on the processing

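The 7 tested members kept their direction under all 12 alternatives, with each value within 1 SD of the spread between libraries. The number of genes called, 19 (14 higher), was 241 with the edgeR likelihood ratio test, 328 with DESeq2, 252 with no filter on low counts, 123 with limma voom, and 0 to 25 when 1 library was left out. The members called, 3, were 5 with no filter and 5 with limma voom, and 0 to 3 without 1 library. Calls on the classical monocyte list, 1, were 3 with the likelihood ratio test, 2 with DESeq2, 3 with no filter, 3 with limma voom and 0 to 1 without 1 library. Those on the Ly6C-low monocyte list, 0, were 2, 2, 3 and 2 with the same 4 analyses. Those on the macrophage list, 0, were 2, 3, 2 and 2. Those on the LXR list, 2, were 3 with the likelihood ratio test, DESeq2, no filter and the block, each adding Pltp, 2 with limma voom (Lpl and Pltp), and 0 to 3 without 1 library. The cause was not tested. The median log2 fold change of all genes, 0.02, was 0.39 with limma voom, 0.26 with the block, and 0.14 and 0.13 without Ptgs-competent replicates 1 and 3.

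Whether the replicate numbers pair the samples is not stated, and the main fit used no pairing. The deviations of same-numbered libraries correlated at -0.049, -0.022 and -0.022 across genes. With so few libraries per group these values cannot exclude a pairing. With the replicate number as a block, 77 genes and 4 members were called, with 2 on the Ly6C-low monocyte list and 1 on the macrophage list, and the log2 fold change of Ly6c2 was 3.64. A ratio of Ly6c2 to Ly6c1 counts had been planned and was not formed, because Ly6c1 was at 0 in 5 of 6 libraries. A count of 0 allows a level of up to 0.357 to 0.647 CPM (3 counts), depending on the library.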
